A study of Mus musculus with 8 samples.

Results

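Gene expression was compared between hepatocytes of Hamp knockout mice and hepatocytes of wild-type mice that had both received olive oil, the carrier used for carbon tetrachloride (CCl4) elsewhere in the study. The libraries were taken by their titles: 2 labelled HAMP-/-_olive oil and 2 labelled C57BL/6_olive oil, which are 4 of 8 libraries in all. The mice were male, 4 weeks old, and had received the oil for 24 h. The 4 libraries left out of the comparison came from mice of the same genotypes given CCl4 at 12.5% in the same oil. They entered the fit to help estimate the spread, and their genotype difference is set beside that under oil. Of 16337 genes, 9446 were tested, those with at least 1 FPKM (fragments scaled to transcript length and to the mapped fragments of a library) in at least 2 of the 4 oil libraries, and 6891 were not. The design states 6 mice per group, whereas each group holds 2 libraries. Whether these are single animals or pools is not given in the sources used here, so the spread behind each p-value, that between these libraries, may be technical only. The construction of the knockout allele, the strain of the knockout mice and their relation to the C57BL/6 controls are likewise not given. Strain and genotype therefore cannot be told apart.

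Hepcidin, the product of Hamp, is a peptide hormone that hepatocytes secrete into blood. It binds ferroportin, the iron exporter encoded by Slc40a1, and causes its degradation, so that gut cells, macrophages and hepatocytes release less iron. Hepatocytes set its transcription from iron stores, through bone morphogenetic proteins (BMP) and SMAD factors, and from inflammation, through interleukin-6 and STAT3. Mice that lack it load iron into the liver as they age.

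Log2 differences below are knockout minus wild type on the log2(FPKM + 1) scale, with standard errors, which understates the change of genes with low values. Where a gene is said to go from a pair of values to another, these are replicates 1 and 2 of the wild type, then replicates 1 and 2 of the knockout. Adjusted p-values come from limma over all tested genes, and "rose", "fell", "higher" and "lower" are used of genes at a false discovery rate (FDR) of 0.05. FPKM are shares of a library, so a gene's value moves when abundant genes change.

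The genotypes differed in the spread between replicates. The standard deviation of the log2 difference between the replicates was 0.134 in wild-type oil and 0.368 in knockout oil. In the knockout, the difference between replicates 1 and 2 followed GC content (Spearman rho -0.6 across 9424 genes, which are no replicates) and transcript length (0.51), and replicate 2 was low in long, AT-rich transcripts. The transferrin receptor Tfrc, for example, had 12.4 and 3.08 FPKM in knockout replicates 1 and 2. Hepatocyte markers made up 9.71% to 9.76% of summed FPKM in the wild type and 14.3% to 15.8% in the knockout, so the label hepatocyte held in all 4 libraries. The Y-linked genes Eif2s3y, Ddx3y and Kdm5d had values above 0 in all 4, as mice labelled male should. Ddx3y had 8.41 and 8.17 FPKM in the wild type and 4.35 and 0.85 FPKM in the knockout (-1.56 ± 0.51, adjusted p = 0.0574), Eif2s3y had 18.5 and 16.7 and 14.4 and 4.41 FPKM (-1.02 ± 0.54, adjusted p = 0.196), and Kdm5d had 1.76 and 1.37 and 1.3 and 0.59 FPKM (-0.42 ± 0.23, adjusted p = 0.216). All were lowest in knockout replicate 2 and none passed, but Ddx3y passed as lower under 9 alternatives (adjusted p between 0.00576 and 0.0405), Kdm5d under 3 and Eif2s3y under 1.

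The targeted gene was measured first as a check of the labels. Hamp (Entrez 84506) had 1805 and 1826 FPKM in the wild-type libraries and 2.72 and 0.54 FPKM in the knockout libraries (log2 difference -9.57 ± 0.36, adjusted p = 1.68e-05). Hamp2, the neighbouring copy that mice carry beside Hamp, had 195 and 190.1 FPKM in the wild type and 0.13 and 0.23 FPKM in the knockout (log2 difference -7.36 ± 0.09, adjusted p = 3.72e-07). Both knockout libraries were far below both wild-type libraries for each gene, so the labels and the data go together. The copies share stretches of sequence: 16.6% of the 50-base windows of the Hamp transcript also occur in that of Hamp2. Reads could have been divided between them in ways that the table does not show.

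The promoters of the copies are shown because both transcripts fell together and because hepcidin's known inputs act there. The stretches lie 140 to 21 bases before the start of each gene in RefSeq, build GRCm38.p6, at chr7:30944050-30944169 on the minus strand for Hamp and at chr7:30924202-30924321 on the minus strand for Hamp2. Capitals mark GGCGCC, the core letters of a BMP response element, and TTCNNNGAA, the letters of a STAT site, each searched on both strands.
Hamp: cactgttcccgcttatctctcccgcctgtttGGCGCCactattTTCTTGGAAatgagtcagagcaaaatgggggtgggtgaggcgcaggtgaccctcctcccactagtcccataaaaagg
Hamp2: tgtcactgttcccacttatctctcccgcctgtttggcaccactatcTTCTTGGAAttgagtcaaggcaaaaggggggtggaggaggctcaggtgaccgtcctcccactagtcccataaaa
The STAT letters stand in both stretches and the BMP letters in that of Hamp. Such matches describe the letters and show no binding: GGCGCC occurs in 13.4% and TTCNNNGAA in 9.55% of 27025 genes with a promoter window of 250 bases before to 50 after the start.

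Genes around Hamp on chromosome 7 were examined because a targeted allele carries flanking sequence with it. Among the 20 tested genes nearest to it, 10 on either side in annotation order, 4 were higher and 3 lower, against 33.7% of all tested genes that passed the threshold in either direction. Apart from Hamp2, 6 of 19 passed (31.6%), and on the whole chromosome 35.8% did. Those that passed included Igflr1, a receptor gene that went from 1.95 and 1.38 to 0.18 and 0.13 FPKM (-1.20 ± 0.14, adjusted p = 0.00124), and Fxyd5, a regulator of the sodium pump, that went from 0.55 and 0.55 to 1.83 and 2.55 FPKM (1.03 ± 0.14, adjusted p = 0.00224). Igflr1 was tested through the wild-type libraries alone and Fxyd5 through the knockout libraries alone, so the filter fixed their direction. Usf2, a transcription factor gene next to Hamp, had 26.7 and 27.6 FPKM against 31.3 and 35.2 FPKM (0.28 ± 0.12, adjusted p = 0.12) and did not pass, but did without knockout CCl4 replicate 1 or 2 (adjusted p = 0.0477 and 0.0489) and with GC and length trends removed (adjusted p = 0.0382).

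Over all tested genes, 3185 passed the threshold (33.7%), of which 2093 were higher (22.2%) and 1092 lower (11.6%) in the knockout. At least 2-fold changes were seen in 453 higher and 221 lower genes. In all 3185 the libraries of the 2 genotypes did not overlap, which was so in 70.3% of all tested genes. The median difference over tested genes was 0.04 and the median standard error 0.116. The higher share of the calls, 65.7%, was 48.5% when trends with GC content and length were removed from each library, an alternative added after the data were seen. Of the tested genes, 407 passed the filter through the knockout libraries alone and 230 through the wild-type libraries alone. These had to differ, and 366 and 164 of them passed, so their direction was fixed by the filter. Of the genes named in the text, those through the knockout alone include Fxyd5, Bmp2, Cd163, Cd14, Atf3, Fgf21 and Bcl2l11. They also include Acot3, Irs2, Hspa1a, Adgre1, Stab2, Kdr, Cxcl9, Ccl24, Ccnd1 and Cdkn1a. Those through the wild type alone include Hamp2, Igflr1, Tnfrsf10b and Cyp26a1. Without replicate 1 or 2 of wild-type oil, 1582 or 1686 genes passed.

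**Figure D1:**
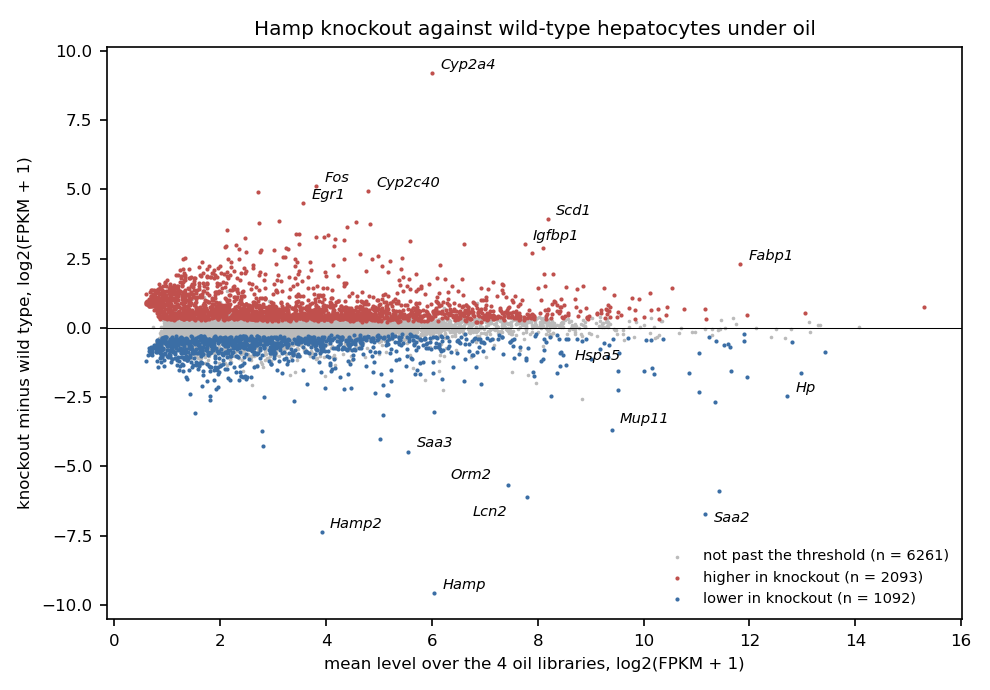
Difference between knockout and wild type under oil (vertical axis, log2(FPKM + 1)) against the mean level over the 4 oil libraries (horizontal axis, same unit) for 9446 tested genes, 1 point per gene. Genes past an FDR of 0.05 are coloured, 2093 higher and 1092 lower, and Hamp at -9.57 and Cyp2a4 at 9.20 lie farthest from 0.

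Of 24 tested genes that control hepcidin, leaving out Hamp and Hamp2 themselves, 7 were higher and 4 lower in the knockout (29.2% and 16.7%, against 22.2% and 11.6% of all genes), and 9 were lower with GC and length trends removed. Bmp2 was tested through the knockout libraries alone. Such a gene had to lie higher there, so a count over tested members is no result about a whole list. Among ligands and receptors, Bmp2, a BMP made mainly by sinusoidal endothelium, went from 0.42 and 0.31 to 3.29 and 3.86 FPKM (log2 difference 1.74 ± 0.10, adjusted p = 7.72e-05). Bmp6, the other main endothelial ligand, stayed under the filter at 0.24 and 0.24 FPKM against 0.64 and 0.72 FPKM. Hfe2, which encodes the BMP co-receptor hemojuvelin, went from 41.5 and 38.1 to 19.7 and 23.3 FPKM (log2 difference -0.86 ± 0.10, adjusted p = 0.00119). The iron sensors Hfe and Tfr2 and the protease gene Tmprss6, which cleaves hemojuvelin, did not pass the test. Hfe had 20.6 and 20.1 FPKM against 18.4 and 22.8 FPKM (0.01 ± 0.11, adjusted p = 0.966), Tfr2 had 209 and 214 FPKM against 167 and 185 FPKM (-0.27 ± 0.10, adjusted p = 0.075), and Tmprss6 had 139.7 and 142 FPKM against 165 and 189 FPKM (0.33 ± 0.12, adjusted p = 0.0774). Both Tfr2 and Tmprss6 passed without knockout CCl4 replicate 1 or 2 (log2 differences -0.27 and 0.33 in each case). They also passed with GC and length trends removed (adjusted p = 0.00055 and 0.0126). Tfr2 passed with quantile normalization (adjusted p = 0.000822) and Tmprss6 with weights by genotype (adjusted p = 0.0449).

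The targets of BMP signalling differed in direction. Id2 and Id3, which encode inhibitors of helix-loop-helix factors, fell, Id2 from 71.3 and 64.1 to 14.8 and 16.4 FPKM (log2 difference -2.05 ± 0.09, adjusted p = 2.82e-05). Id3 went from 24.5 and 25.3 to 6.92 and 8.6 FPKM (log2 difference -1.57 ± 0.14, adjusted p = 0.000345). Id1, the BMP target most often read out in liver, went the other way, from 1.71 and 1.66 to 2.84 and 3.31 FPKM (log2 difference 0.60 ± 0.10, adjusted p = 0.00527). Atoh8, a BMP target, had 6.6 and 6.48 FPKM against 3.93 and 5.47 FPKM (-0.42 ± 0.18, adjusted p = 0.115) without passing, and passed with GC and length trends removed (adjusted p = 0.0138). Smad4, the shared partner of the SMADs, rose from 5.72 and 5.45 to 8.53 and 8.6 FPKM (log2 difference 0.54 ± 0.09, adjusted p = 0.00538). The endothelial and macrophage markers described below also rose in the knockout, and their part in the rise of Bmp2 and Id1 was not tested.

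On the inflammatory arm, the receptor and the factor that carry interleukin-6 signals to Hamp were higher. Il6ra, the receptor gene, went from 7.29 and 7.46 to 24.4 and 21.6 FPKM (log2 difference 1.52 ± 0.09, adjusted p = 7.54e-05), and Stat3 went from 15.7 and 16.9 to 26.1 and 26.4 FPKM (log2 difference 0.65 ± 0.08, adjusted p = 0.00128). Fgl1, which encodes a hepatocyte protein that binds BMP ligands and so restrains hepcidin, fell from 1744 and 1780.5 to 631 and 567 FPKM (log2 difference -1.56 ± 0.15, adjusted p = 0.000582). Gdf15, a stress cytokine gene, rose from 22.3 and 25.3 to 36.5 and 43.6 FPKM (log2 difference 0.72 ± 0.15, adjusted p = 0.0124), a call lost without wild-type oil replicate 1 (adjusted p = 0.0897) or knockout oil replicate 2 (adjusted p = 0.0567). Furin, the protease gene that matures hepcidin, was at the threshold (log2 difference 0.31 ± 0.09, adjusted p = 0.0449). Its call was lost with quantile normalization (adjusted p = 0.0863), equal library medians (0.152), no filter (0.0539) or weights by genotype (0.0508). It was also lost in a fit of the 4 oil libraries (adjusted p = 0.0587) and with GC and length trends removed (0.11). The same held without either wild-type oil library (log2 difference 0.27 and 0.34), either knockout oil library (0.37 and 0.24) or either wild-type CCl4 library (0.31 and 0.31).

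Of 29 tested genes of iron handling, 6 were higher and 5 lower (20.7% higher and 17.2% lower, against 22.2% and 11.6% of all genes), with 1, Cd163, tested through the knockout libraries alone. Among the lower ones, 3 encode blood proteins that bind heme, haemoglobin or iron carriers: Lcn2 (lipocalin 2, which captures bacterial iron carriers) from 1835 and 1868 to 24.8 and 26.9 FPKM, Hp (haptoglobin) from 15184 and 16137 to 2654 and 3064 FPKM and Hpx (hemopexin) from 13993 and 14102 to 4209.6 and 4941 FPKM. Their log2 differences were -6.11 ± 0.10 (adjusted p = 4.5e-07), -2.46 ± 0.11 (adjusted p = 2.76e-05) and -1.62 ± 0.11 (adjusted p = 0.000155), and each is also a gene of the acute phase response. Cp, the ferroxidase ceruloplasmin, went from 591 and 564 to 283 and 125 FPKM (log2 difference -1.61 ± 0.43, adjusted p = 0.0287). Its call was lost without knockout oil replicate 2 (adjusted p = 0.0925), without wild-type oil replicate 1 or 2 (adjusted p = 0.13 and 0.115) and without wild-type CCl4 replicate 1 or 2 (adjusted p = 0.059 and 0.0589). Steap4, a ferrireductase gene, fell from 33.4 and 31.5 to 16 and 13 FPKM (log2 difference -1.11 ± 0.12, adjusted p = 0.000848). The higher ones included Slc39a14, a transporter gene for iron that is not bound to transferrin, from 26.3 and 24.5 to 40.9 and 39.4 FPKM (log2 difference 0.64 ± 0.08, adjusted p = 0.00149). Pcbp2, an iron chaperone gene, went from 53.3 and 52.5 to 80.2 and 85.4 FPKM (log2 difference 0.64 ± 0.08, adjusted p = 0.00149). Cd163, the haemoglobin receptor gene of macrophages, went from 0.54 and 0.62 to 3.6 and 2.61 FPKM (log2 difference 1.37 ± 0.17, adjusted p = 0.00131). The count of higher genes was 3 without wild-type oil replicate 1, and that of lower genes 9 with GC and length trends removed and 12 with a replicate block besides.

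The genes of ferroportin, the ferritins, transferrin and its receptor did not pass the test on the values as deposited. Slc40a1, which encodes ferroportin, had 37.2 and 36.5 FPKM in the wild type and 36.7 and 30.4 FPKM in the knockout (log2 difference -0.14 ± 0.17, adjusted p = 0.582). The ferritin genes Fth1 and Ftl1 had 1172 and 1209.9 FPKM against 1285 and 1562 FPKM (0.25 ± 0.11, adjusted p = 0.136) and 2926 and 3042 FPKM against 2683 and 3254 FPKM (-0.01 ± 0.13, adjusted p = 0.944). Trf, which encodes transferrin, had 9707 and 9658 FPKM against 10067 and 10901 FPKM (0.11 ± 0.10, adjusted p = 0.411). With quantile normalization all 3 were higher, by 0.51, 0.41 and 0.80 (adjusted p = 0.00108, 0.00335 and 7.59e-05), and Fth1 passed without knockout oil replicate 1 (adjusted p = 0.036). For Tfrc, whose transcript is stabilised when cells lack iron, the knockout values of 12.4 and 3.08 FPKM lay on either side of the wild-type values of 6.7 and 6.4 FPKM (-0.03 ± 0.58, adjusted p = 0.972). The hepatocyte level of iron itself was not measured.

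Of 16 tested enzymes of heme synthesis and breakdown, 4 were higher and 1 lower (25.0% higher and 6.25% lower, against 22.2% and 11.6% of all genes), which is near those shares. Alas1, which makes the rate-limiting synthase of heme in liver, went from 93.9 and 95.4 to 262 and 292 FPKM (log2 difference 1.54 ± 0.08, adjusted p = 5.72e-05). Hmox1, the inducible heme oxygenase that frees iron from heme, went from 2.2 and 3.2 to 11.7 and 14.9 FPKM (log2 difference 1.95 ± 0.17, adjusted p = 0.000355). Cpox, a later enzyme of synthesis, went from 34.2 and 34.3 to 50.2 and 48.6 FPKM (log2 difference 0.52 ± 0.07, adjusted p = 0.00196). Lower members numbered 2 with quantile normalization, 0 without wild-type oil replicate 1 or 2 or knockout oil replicate 2 and 5 with GC and length trends removed. The macrophage markers, whose cells express Hmox1, rose too, and their part in its rise was not tested.

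**Figure D2:**
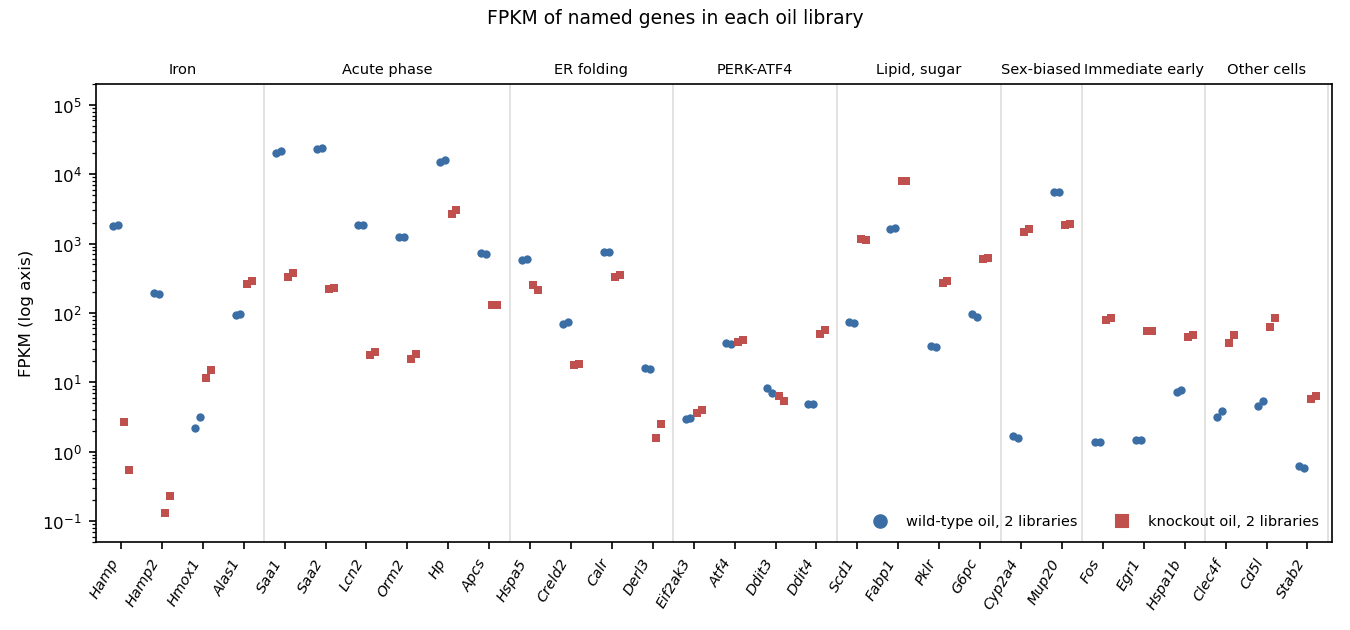
FPKM on a log axis in each of the 4 oil libraries for 30 genes of the text in 8 groups, circles for the 2 wild-type and squares for the 2 knockout libraries. The acute phase and folding genes lie lower in both knockout libraries, while Eif2ak3, Atf4 and Ddit3 lie close together in all 4.

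The largest changes held a few recognisable groups. The 15 largest increases among genes above the median level held the detoxifying oxygenases Cyp2a4, Cyp2c40 and Cyp2c69, and 4 products of Kupffer cells, the macrophages of the liver: Cd5l, Clec4f, C1qb and C1qc. Fos and Egr1 are immediate early transcription factor genes, Scd1 and Lpin1 act in lipid synthesis, and Ddit4 brakes mTOR signalling. Rgs16, which encodes an inhibitor of G protein signalling, went from 5.47 and 5.14 to 85.2 and 91.1 FPKM (log2 difference 3.82 ± 0.16, adjusted p = 2.37e-05). Tmem86a, which encodes an enzyme of ether lipid breakdown, went from 1.56 and 1.04 to 29 and 34.9 FPKM (log2 difference 3.85 ± 0.14, adjusted p = 1.68e-05).

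Of the 15 largest decreases, Hamp and Hamp2 came first, and 8 others encode plasma proteins of the acute phase: Saa1, Saa2, Saa3, Lcn2, Orm1, Orm2, Hp and Apcs. Mup11 and Mup12 encode major urinary proteins. Angptl8, which encodes an inhibitor of lipoprotein lipase that feeding induces, went from 125 and 133 to 5.75 and 8.86 FPKM (log2 difference -4.0 ± 0.18, adjusted p = 2.91e-05). Arrdc3, an arrestin-like gene, went from 27.4 and 23.2 to 4.61 and 2.17 FPKM (log2 difference -2.64 ± 0.41, adjusted p = 0.00379), and Erdr1 went from 101 and 97.4 to 11.1 and 9.98 FPKM (log2 difference -3.12 ± 0.10, adjusted p = 9.57e-06).

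Genes of the acute phase, the plasma proteins that the liver makes more of in inflammation, were mostly lower in the knockout. Of 30 tested, 25 were lower and 2 higher (6.67% higher and 83.3% lower, against 22.2% and 11.6% of all genes), with 1, Cd14, tested through the knockout libraries alone. Their median log2 difference was -1.57, against 0.04 over all genes. Saa1 and Saa2, the serum amyloid A genes, went from 20402 and 21875 to 333 and 377 FPKM (-5.89 ± 0.11, adjusted p = 6.94e-07) and from 22918 and 24091 to 224 and 225 FPKM (-6.70 ± 0.10, adjusted p = 4.5e-07). Their transcripts share 9.11% and 8.46% of their 50-base windows. Summed, they made up 7.11% and 7.46% of all FPKM in the wild-type libraries and 0.101% and 0.104% in the knockout libraries, a ratio of 77.0. Lcn2 held 1835 and 1868 FPKM in the wild type and 24.8 and 26.9 FPKM in the knockout, and Orm2, an alpha-1 acid glycoprotein gene, 1241 and 1241 FPKM and 21.5 and 25.7 FPKM (-5.66 ± 0.11, adjusted p = 1.11e-06). Every library of the wild type thus carried a high level of these transcripts.

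The differences of single members covered a wide range. Saa3 went from 209 and 230.5 to 8.78 and 9.28 FPKM (-4.46 ± 0.13, adjusted p = 6.65e-06), and Apcs, which encodes serum amyloid P, went from 725 and 701 to 132 and 129 FPKM (-2.44 ± 0.07, adjusted p = 4.78e-06). Fgb and Fgg, which encode fibrinogen chains, fell less, from 4479 and 4499.9 to 3167 and 3356 FPKM (-0.46 ± 0.07, adjusted p = 0.00326) and from 3754 and 3783 to 2503 and 2506 FPKM (-0.59 ± 0.08, adjusted p = 0.00199). With quantile normalization the difference of Fgb was 0.07 (adjusted p = 0.501), so its direction turned. The 2 higher members were Ahsg, the gene of the negative acute phase protein fetuin, and Cd14, the receptor gene for bacterial lipopolysaccharide that macrophages also express. Ahsg went from 7097 and 7006 to 9572 and 10875 FPKM (0.53 ± 0.09, adjusted p = 0.0056), a call lost without wild-type oil replicate 1 or 2 (adjusted p = 0.0504 and 0.0533), and Cd14 went from 0.8 and 0.84 to 5.02 and 7.68 FPKM (1.99 ± 0.17, adjusted p = 0.000356). The summed FPKM of the 31 members in the table was 20.2% and 20.5% of all FPKM in the wild type and 7.16% and 7.41% in the knockout. The other genes of the knockout libraries share the room that this leaves, and with quantile normalization 23 members were lower.

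Of 21 tested genes of interleukin-6 and interleukin-1 signalling, which drive this response, 11 were higher and 1 lower (52.4% higher and 4.76% lower, against 22.2% and 11.6% of all genes), with 1 tested through the knockout libraries alone. The lower count was 0 without wild-type CCl4 replicate 1 or 2 or wild-type oil replicate 1 or 2 or knockout oil replicate 1, or with quantile normalization, or in a fit of the 4 oil libraries. Socs3, which blocks the interleukin-6 receptor, went from 4.12 and 3.48 to 23 and 25.1 FPKM (log2 difference 2.39 ± 0.10, adjusted p = 2.21e-05). Socs2, which blocks the growth hormone receptor, went from 1.28 and 1.08 to 7.65 and 7.96 FPKM (log2 difference 2.02 ± 0.12, adjusted p = 9.26e-05). Cebpd, a factor that drives acute phase promoters, went from 1.99 and 1.92 to 5.15 and 6.48 FPKM (log2 difference 1.20 ± 0.13, adjusted p = 0.000916). Steap4, Apcs, Fga, Fgb and Itih4 are the acute phase members whose promoter window holds the STAT letters, 5 of 23 with a window (21.7% against 9.55% of all genes). All 5 were lower, but so were 83.3% of the 30 tested acute phase members. A link between the letters and the fall was not tested. Fga went from 2723 and 2728 to 2127 and 2189 FPKM (-0.34 ± 0.07, adjusted p = 0.0132), and its call was lost without wild-type oil replicate 1 or 2 (adjusted p = 0.095 and 0.0954) and its direction turned with quantile normalization (0.05).

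Hepatocytes also secrete complement and coagulation proteins. Of 28 tested complement genes, 8 were higher and 5 lower (28.6% higher and 17.9% lower, against 22.2% and 11.6% of all genes). The largest rises were C1qa, C1qb, C1qc and Fcna, from 4.88 and 5.79 to 42.3 and 55.9 FPKM, from 3.69 and 4.4 to 40.7 and 55.2 FPKM, from 3.63 and 4.77 to 43.8 and 60 FPKM and from 1.67 and 1.5 to 14.9 and 19.2 FPKM. Macrophages make these 4 products, and 3 of them are in the macrophage marker list. The number of lower members was 10 with quantile normalization, 8 with weights by genotype, 2 without wild-type oil replicate 1 or 2, 9 without knockout CCl4 replicate 1 or 2 and 12 with GC and length trends removed. Of 26 tested coagulation genes, 9 were lower and none higher (0% higher and 34.6% lower), led by Cpb2, an inhibitor of clot breakdown, from 466 and 460.0 to 259 and 253 FPKM (log2 difference -0.85 ± 0.08, adjusted p = 0.000445). That count was 4 without wild-type oil replicate 1, 5 without wild-type oil replicate 2, 14 with GC and length trends removed and 16 with GC and length trends removed and a replicate block, and as many as 2 were higher with quantile normalization.

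Genes for protein folding in the endoplasmic reticulum (ER) were a second group with many lower members. Of 30 tested chaperone and ER-associated degradation genes, 20 were lower and 2 higher (6.67% higher and 66.7% lower, against 22.2% and 11.6% of all genes), and the median was -0.82. Hspa5, the main ER chaperone, BiP, went from 580.4 and 590.2 to 251 and 218 FPKM (log2 difference -1.32 ± 0.12, adjusted p = 0.00038). Creld2, a folding factor gene, went from 69.4 and 74.9 to 17.8 and 18.6 FPKM (log2 difference -1.93 ± 0.08, adjusted p = 2.41e-05). Sdf2l1, a partner of BiP, went from 79.5 and 84.2 to 13.4 and 15.8 FPKM (log2 difference -2.41 ± 0.14, adjusted p = 6.44e-05). Pdia4, a disulphide isomerase gene, went from 136 and 137 to 50.4 and 51.5 FPKM (log2 difference -1.41 ± 0.07, adjusted p = 3.22e-05). Derl3, part of the channel that exports misfolded proteins, fell most in size, from 16.2 and 15.3 to 1.57 and 2.48 FPKM (log2 difference -2.48 ± 0.15, adjusted p = 7.64e-05). Xbp1, the factor that drives many of these genes, went from 86 and 87 to 50.5 and 57.4 FPKM (log2 difference -0.67 ± 0.09, adjusted p = 0.00243). Its activating nuclease gene Ern1 was higher, from 5.17 and 4.57 to 9.5 and 8.14 FPKM (log2 difference 0.74 ± 0.10, adjusted p = 0.00247). Higher members numbered 1 without wild-type oil replicate 1 or 2.

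Promoters of this group are shown because 20 of its 30 members fell and because many are known to carry a shared element. The ER stress response element, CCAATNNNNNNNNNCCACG, bound by ATF6 with NF-Y, was searched on both strands of the same windows. It occurs in 37 of 27025 genes (0.137%) and in 9 of the 24 group members with a window (37.5%), of which 8 were lower. The match in the 6 lower genes whose call held under all alternatives but an FDR of 0.01 and a minimum 2-fold change is printed in capitals with 20 bases on either side, on the gene's strand, from RefSeq GRCm38.p6. Hspa5 lies at chr2:34772005-34772063 on the plus strand, Calr at chr8:84847055-84847113 on the minus strand, Pdia6 at chr12:17266471-17266529 on the plus strand, Creld2 at chr15:88819500-88819558 on the plus strand, Syvn1 at chr19:6046512-6046570 on the plus strand and Derl3 at chr10:75893222-75893280 on the plus strand.
Hspa5: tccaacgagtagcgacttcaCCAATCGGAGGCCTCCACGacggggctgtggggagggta
Calr: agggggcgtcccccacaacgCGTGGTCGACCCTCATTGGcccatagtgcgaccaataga
Pdia6: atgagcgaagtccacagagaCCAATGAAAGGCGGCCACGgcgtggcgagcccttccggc
Creld2: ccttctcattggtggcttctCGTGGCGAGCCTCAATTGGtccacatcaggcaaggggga
Syvn1: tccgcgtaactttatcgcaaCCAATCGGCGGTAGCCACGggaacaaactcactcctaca
Derl3: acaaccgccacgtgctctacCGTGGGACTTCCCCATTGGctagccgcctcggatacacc
In Calr, Creld2 and Derl3 the capitals read as the reverse strand of the element. Calr, which encodes calreticulin, went from 762 and 751 to 334 and 355 FPKM (-1.13 ± 0.07, adjusted p = 0.000106). Pdia6, a disulphide isomerase gene, went from 223 and 228 to 113 and 121 FPKM (-0.94 ± 0.08, adjusted p = 0.000262). Syvn1, a ubiquitin ligase gene of ER-associated degradation, went from 44.6 and 45.8 to 18.7 and 18.4 FPKM (-1.24 ± 0.09, adjusted p = 0.000146). The other genes with the element were Hsp90b1, Dnajc3 and Canx. Hsp90b1 went from 443 and 443 to 204 and 87.3 FPKM (-1.72 ± 0.50, adjusted p = 0.0386). Dnajc3 went from 70.3 and 69 to 42.9 and 24.6 FPKM (-1.08 ± 0.28, adjusted p = 0.0253). Both calls were lost without knockout oil replicate 2 (adjusted p = 0.146 and 0.0749), without wild-type oil replicate 1 (0.15 and 0.117) or 2 (0.148 and 0.109) and without wild-type CCl4 replicate 1 (0.0745 and 0.0532) or 2 (0.0745 and 0.0532). Canx had 98.7 and 95 FPKM against 76 and 45.7 FPKM and did not pass (-0.71 ± 0.34, adjusted p = 0.157), but did with GC and length trends removed (adjusted p = 0.0177) and without knockout CCl4 replicate 1 or 2 (adjusted p = 0.0487 and 0.0493).

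The study's title names PERK, the ER stress kinase that slows translation and raises ATF4. Its gene Eif2ak3 had 2.96 and 3.03 FPKM in the wild type and 3.58 and 3.99 FPKM in the knockout, and did not pass (log2 difference 0.26 ± 0.11, adjusted p = 0.111). Atf4 had 37 and 35.7 FPKM against 37.8 and 41.3 FPKM (0.12 ± 0.12, adjusted p = 0.472), and Ddit3, which encodes the death-promoting factor CHOP, 8.43 and 7.02 FPKM against 6.43 and 5.38 FPKM (-0.34 ± 0.14, adjusted p = 0.107). Of 24 tested genes of this pathway, 13 were higher and 1 lower (54.2% higher and 4.17% lower, against 22.2% and 11.6% of all genes), with 4 tested through the knockout libraries alone, Atf3 and Fgf21 among them. The lower count was 2 without knockout oil replicate 1, or with quantile normalization, or with a replicate block, 3 with GC and length trends removed and 4 with GC and length trends removed and a replicate block. Ddit4 went from 4.92 and 4.91 to 50.5 and 56.3 FPKM (log2 difference 3.20 ± 0.09, adjusted p = 4.22e-06). Atf3, a stress factor gene, went from 0.82 and 0.68 to 5.42 and 5.43 FPKM (log2 difference 1.88 ± 0.10, adjusted p = 5.19e-05). Ppp1r15a, which encodes the phosphatase subunit that restores translation, went from 3.33 and 3.31 to 10.8 and 10.9 FPKM (log2 difference 1.46 ± 0.08, adjusted p = 5.35e-05). Fgf21, a fasting hormone gene, went from 0.48 and 0.24 to 2.74 and 2.94 FPKM (log2 difference 1.5 ± 0.11, adjusted p = 0.000179). Several of these genes respond to other signals too, and Atf3 is also in the immediate early list.

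Of 28 tested apoptosis genes, 3 were higher and 5 lower (10.7% higher and 17.9% lower, against 22.2% and 11.6% of all genes). Bcl2l11 was tested through the knockout libraries alone and Tnfrsf10b through the wild-type libraries alone, so the filter fixed the direction of both. The lower ones included Bik, which encodes a death-promoting BCL2 relative, from 7.62 and 7.17 to 3.31 and 3.94 FPKM (log2 difference -0.86 ± 0.13, adjusted p = 0.00309). Tnfrsf10b, a death receptor gene, went from 2.05 and 1.7 to 0.68 and 0.52 FPKM (log2 difference -0.84 ± 0.13, adjusted p = 0.00304). Bcl2l11, which encodes the death-promoting protein BIM, rose from 0.79 and 0.59 to 1.5 and 1.56 FPKM (log2 difference 0.58 ± 0.11, adjusted p = 0.00832), a call lost without wild-type oil replicate 2 (adjusted p = 0.0672). The number of higher members was 5 without knockout CCl4 replicate 2, or in a fit of the 4 oil libraries, 1 without wild-type oil replicate 1 or knockout oil replicate 2, 0 without wild-type oil replicate 2 and 6 without knockout CCl4 replicate 1. The lower count was 2 without wild-type oil replicate 1 or 2, 8 without knockout CCl4 replicate 1 or 2, 3 without knockout oil replicate 2 and 10 with GC and length trends removed.

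Of 20 tested cytosolic tRNA synthetases, which ATF4 also drives, 8 were higher, all by less than 0.5 on the log2 scale, and none lower (40% higher and 0% lower, against 22.2% and 11.6% of all genes). This count was 5 without wild-type CCl4 replicate 1 or 2, or with quantile normalization, 3 with equal library medians, 1 without wild-type oil replicate 1 or 2, 4 without knockout oil replicate 1 and 2 without knockout oil replicate 2, and with GC and length trends removed 4 members were lower. Of 15 tested ferroptosis genes, 6 were higher and none lower (40% higher and 0% lower), with 1 tested through the knockout libraries alone. They included Chac1, which breaks down glutathione, from 2.27 and 2.31 to 5.99 and 6.31 FPKM (log2 difference 1.12 ± 0.12, adjusted p = 0.000759). With GC and length trends removed 3 were lower. Of 28 tested genes of the NRF2 and glutathione group, 10 were higher and 5 lower (35.7% higher and 17.9% lower), with 1 tested through the knockout libraries alone. Among the higher ones was Me1, malic enzyme, from 25.2 and 23.9 to 82.7 and 90 FPKM (log2 difference 1.77 ± 0.08, adjusted p = 2.76e-05). Osgin1 was among the lower ones, from 97.3 and 99.7 to 38.9 and 43.5 FPKM (log2 difference -1.24 ± 0.11, adjusted p = 0.000456). The higher count of this list was 6 without wild-type oil replicate 1, and the lower count 3 without wild-type CCl4 replicate 1 or 2 or knockout oil replicate 2, or with equal library medians, or in a fit of the 4 oil libraries, 2 without wild-type oil replicate 1 or 2 or knockout oil replicate 1 and 12 with GC and length trends removed.

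Most tested genes that make and desaturate fatty acids were higher. Of 29 tested, 22 were higher and 4 lower (75.9% higher and 13.8% lower, against 22.2% and 11.6% of all genes), with 1 tested through the knockout libraries alone, and the median was 1.10. Scd1, the main desaturase of liver, went from 75.3 and 72.6 to 1153 and 1125 FPKM (log2 difference 3.93 ± 0.06, adjusted p = 4.77e-07). Lpin1, a phosphatidate phosphatase and nuclear coactivator gene, went from 7.18 and 6.25 to 107 and 100.1 FPKM (log2 difference 3.76 ± 0.08, adjusted p = 1.99e-06). Elovl5, which elongates polyunsaturated fatty acids, went from 31.6 and 31.2 to 155 and 158 FPKM (log2 difference 2.28 ± 0.06, adjusted p = 4.22e-06). Fabp1, the main fatty acid carrier of hepatocytes, went from 1613 and 1659 to 8067 and 8011 FPKM (log2 difference 2.30 ± 0.08, adjusted p = 1.1e-05). Fasn, fatty acid synthase, went from 23.6 and 22.8 to 52.2 and 52.7 FPKM (log2 difference 1.14 ± 0.07, adjusted p = 0.000101). Genes of factors that drive this program fell: Srebf1 went from 109 and 109.5 to 57.4 and 61.8 FPKM (log2 difference -0.87 ± 0.09, adjusted p = 0.000691). Mlxipl, which encodes ChREBP, went from 46.1 and 35.6 to 20.3 and 19 FPKM (log2 difference -1.01 ± 0.16, adjusted p = 0.00404). Lower members numbered 2 without wild-type oil replicate 1 or 2.

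Of 44 tested genes that burn fatty acids, 35 were higher and 4 lower (79.5% higher and 9.09% lower, against 22.2% and 11.6% of all genes), with 4 tested through the knockout libraries alone. The median was 0.65. The thioesterases Acot1, Acot3 and Acot4 went from 2.64 and 3.2 to 28.5 and 33.8 FPKM, from 0.8 and 0.79 to 15.4 and 16.8 FPKM and from 4.87 and 4.48 to 21 and 20.5 FPKM, with log2 differences of 3.03 ± 0.13, 3.25 ± 0.10 and 1.94 ± 0.11, and Acot3 is one of those tested through the knockout alone. Angptl4, a fasting-induced inhibitor of lipoprotein lipase, went from 17.3 and 17.2 to 97.6 and 109 FPKM (log2 difference 2.51 ± 0.10, adjusted p = 1.87e-05). Cpt1a, the gate for entry of fatty acids into mitochondria, went from 64.4 and 61.5 to 143 and 147 FPKM (log2 difference 1.19 ± 0.08, adjusted p = 0.000102). Ppara, the receptor that drives these genes, went from 19.7 and 18.6 to 45.7 and 40.4 FPKM (log2 difference 1.13 ± 0.11, adjusted p = 0.000564). Cyp4a14 and Cyp4a10, also PPARA targets, were lower, from 177 and 179 to 144 and 142 FPKM (-0.31 ± 0.06, adjusted p = 0.0095) and from 163 and 157 to 120.4 and 122 FPKM (-0.40 ± 0.07, adjusted p = 0.00587). The call of Cyp4a10 was lost without wild-type oil replicate 1 (adjusted p = 0.061). The call of Cyp4a14 was lost without wild-type oil replicate 1 or 2 (adjusted p = 0.0726 and 0.0829), and the lower count was 0 without wild-type oil replicate 1 and 1 without wild-type oil replicate 2.

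Of 34 tested genes of glucose handling, 18 were higher and 3 lower (52.9% higher and 8.82% lower, against 22.2% and 11.6% of all genes). Pklr, liver pyruvate kinase of glycolysis, went from 33.5 and 32.8 to 267 and 292 FPKM (log2 difference 3.04 ± 0.07, adjusted p = 2.67e-06). Pfkfb3, which makes an activator of glycolysis, went from 1.36 and 1.36 to 9.27 and 8.42 FPKM (log2 difference 2.06 ± 0.09, adjusted p = 2.42e-05). G6pc and Pck1, the glucose-6-phosphatase and carboxykinase of glucose production, went from 96.1 and 87.3 to 593 and 616 FPKM (2.71 ± 0.07, adjusted p = 4.22e-06) and from 908 and 901 to 2352 and 2515 FPKM (1.43 ± 0.08, adjusted p = 7.08e-05). Gys2, liver glycogen synthase, went from 51.7 and 50.1 to 168 and 181 FPKM (log2 difference 1.76 ± 0.07, adjusted p = 1.87e-05). The number of lower members was 1 without wild-type oil replicate 1 and 5 with GC and length trends removed.

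Of 24 tested genes of insulin, FOXO and growth hormone signalling, 15 were higher and none lower (62.5% higher and 0% lower, against 22.2% and 11.6% of all genes), with 2 tested through the knockout libraries alone, Irs2 among them. The FOXO targets Igfbp1, an IGF-binding protein gene, and Irs2, an insulin receptor substrate gene, went from 78.2 and 71.3 to 602 and 627 FPKM (3.02 ± 0.10, adjusted p = 8.22e-06) and from 0.84 and 0.86 to 7.71 and 7.67 FPKM (2.23 ± 0.10, adjusted p = 3.22e-05). Foxo3 itself went from 3.54 and 3.84 to 13.2 and 13 FPKM (log2 difference 1.59 ± 0.08, adjusted p = 4.32e-05). Bcl6, a repressor that growth hormone lowers, went from 4.03 and 4.45 to 17.6 and 17.5 FPKM (log2 difference 1.82 ± 0.09, adjusted p = 3.5e-05). The higher count was 9 without wild-type oil replicate 1, and as many as 2 were lower with GC and length trends removed.

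Of 31 tested cholesterol genes, 11 were lower and 4 higher (12.9% higher and 35.5% lower, against 22.2% and 11.6% of all genes). Msmo1, a sterol oxidase gene, went from 63 and 62.8 to 21.4 and 20.8 FPKM (log2 difference -1.53 ± 0.07, adjusted p = 2.76e-05). Sqle, squalene epoxidase, went from 15.2 and 15.5 to 8.17 and 8.33 FPKM (log2 difference -0.82 ± 0.08, adjusted p = 0.000473). The lower count was 5 without wild-type oil replicate 1 or 2. Of 31 bile acid genes, 12 were higher and 7 lower (38.7% higher and 22.6% lower), with 1 tested through the knockout libraries alone. Among them was Slc10a1, the uptake transporter from blood, from 295 and 289 to 594 and 597 FPKM (log2 difference 1.03 ± 0.07, adjusted p = 0.000132). Cyp7b1, an oxysterol hydroxylase, went from 28.9 and 27.4 to 10.5 and 8.21 FPKM (log2 difference -1.5 ± 0.14, adjusted p = 0.000455). These counts were 7 and 4 without either wild-type oil replicate.

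**Figure D3:**
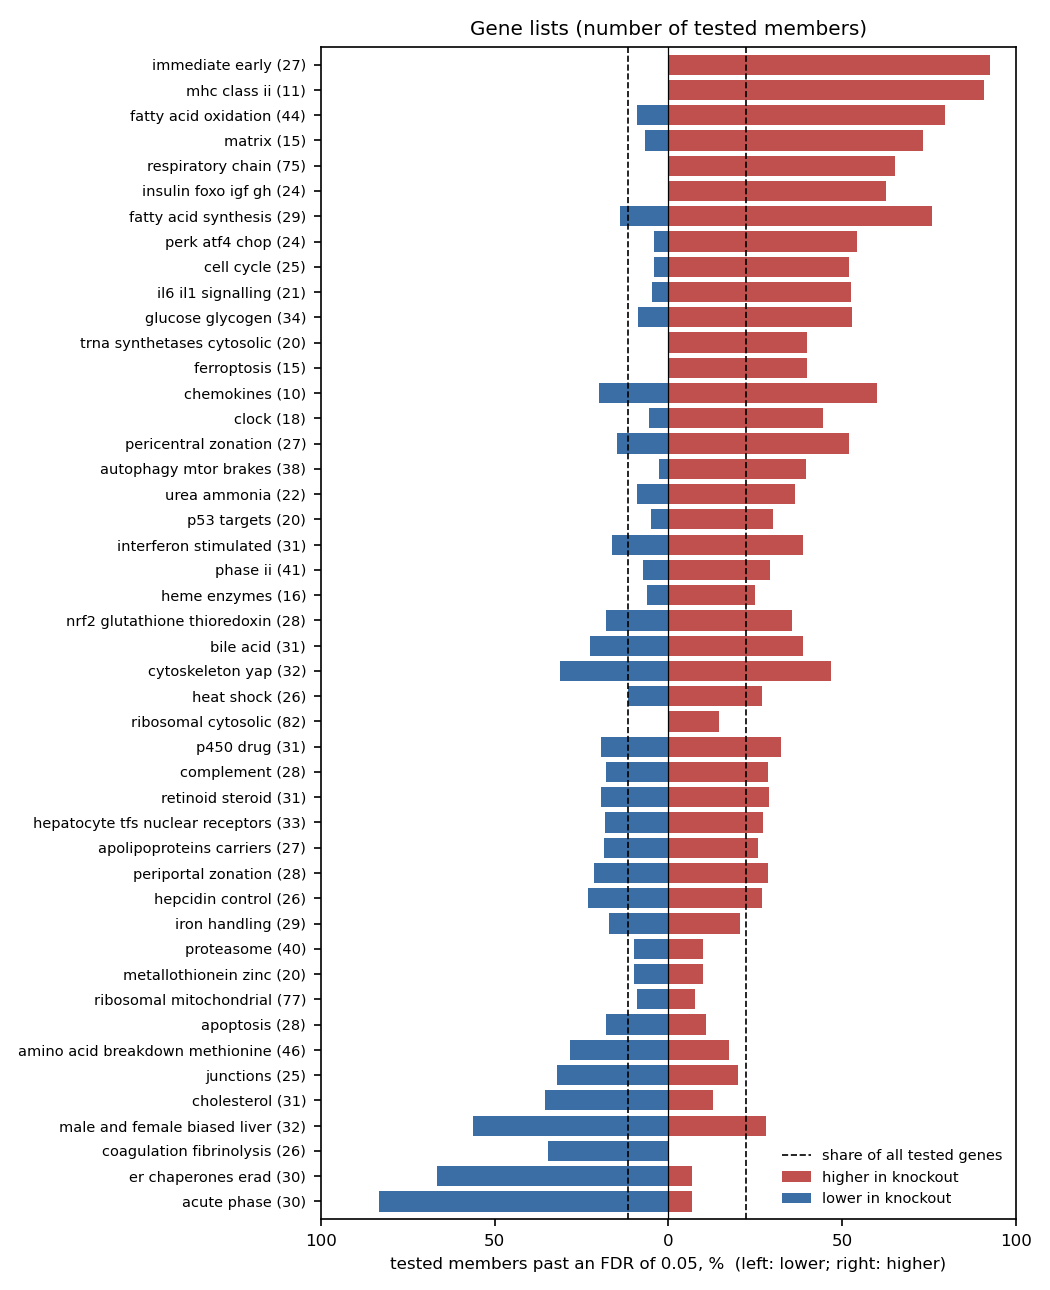
Share of the tested members of 46 gene lists past an FDR of 0.05, higher in the knockout to the right and lower to the left, in percent, with the number tested in parentheses. Dashed lines mark 22.2% and 11.6% of all tested genes, and immediate early genes (92.6% higher) and acute phase genes (83.3% lower) stand at the ends.

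Of 31 tested P450 genes of drug metabolism, 10 were higher and 6 lower (32.3% higher and 19.4% lower, against 22.2% and 11.6% of all genes). Cyp2a4, a steroid hydroxylase gene that female livers express more than male ones, went from 1.68 and 1.6 to 1467 and 1639 FPKM (log2 difference 9.20 ± 0.20, adjusted p = 1.95e-06). Its near-identical neighbour Cyp2a5 went from 158 and 158 to 584 and 641 FPKM (log2 difference 1.95 ± 0.09, adjusted p = 3.22e-05). Of the 50-base windows of the Cyp2a4 transcript, 36.1% occur in that of Cyp2a5, so the division of reads between them is uncertain, and their sum was 159 and 159 FPKM in the wild type and 2051 and 2281 FPKM in the knockout, 13.6-fold higher. Cyp2c40 and Cyp2c69, 2 female-biased copies of a large family that share 42.1% and 46.3% of their windows, went from 4.08 and 3.93 to 173 and 136 FPKM (4.95 ± 0.23, adjusted p = 3.22e-05) and from 2.61 and 2.38 to 39.2 and 32.1 FPKM (3.39 ± 0.16, adjusted p = 3.5e-05). Cyp2b10, the classic target of the receptor CAR, was lower, from 7.77 and 7.64 to 1.3 and 1.45 FPKM (log2 difference -1.87 ± 0.09, adjusted p = 2.91e-05). Cyp2e1, which activates CCl4, had 2552 and 2557 FPKM against 3031 and 3219 FPKM and did not pass (0.29 ± 0.24, adjusted p = 0.386), but did without knockout CCl4 replicate 1 or 2 (adjusted p = 0.0151 and 0.0153). The lower count of the list was 3 without either wild-type oil replicate.

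Genes with a sex bias in liver changed in most cases, although all mice are labelled male and Y-linked genes were present. Of 32 tested, 9 were higher and 18 lower (28.1% higher and 56.2% lower, against 22.2% and 11.6% of all genes), with 2 tested through the knockout libraries alone. The list pools male-biased and female-biased genes, so these counts do not say which bias changed. It includes urinary protein genes, described below, whose copies are not separate observations. Some female-biased genes stayed near 0 in every oil library: Cyp2b13 at 0 and 0 FPKM against 0 and 0.03 FPKM, Cyp3a41a at 0.03 and 0.04 FPKM against 0.17 and 0 FPKM and Cyp3a16 at 0.07 and 0 FPKM against 0 and 0 FPKM. The male-biased urinary protein genes were lower in 12 cases and higher in 1 of the 21 in the table. Mup20, a male pheromone gene, went from 5543 and 5458 to 1858 and 1933 FPKM (log2 difference -1.54 ± 0.07, adjusted p = 2.65e-05). These copies are too alike to be counted apart with certainty, and their sum was 9.26% and 8.79% of all FPKM in the wild type and 5.28% and 4.35% in the knockout. Elovl3, also male-biased, rose instead, from 5.57 and 5.83 to 12.8 and 13.9 FPKM (log2 difference 1.10 ± 0.09, adjusted p = 0.000311). The lower count of the list was 11 without wild-type oil replicate 1.

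Other liver functions were mixed. Of 41 phase II enzymes tested, 12 were higher and 3 lower (29.3% higher and 7.32% lower, against 22.2% and 11.6% of all genes), with 1 tested through the knockout libraries alone. Ugt1a1, which conjugates bilirubin, went from 87.9 and 87.1 to 189 and 194 FPKM (log2 difference 1.12 ± 0.09, adjusted p = 0.000249). Nnmt, which methylates nicotinamide, went from 247 and 248 to 55.7 and 63.5 FPKM (log2 difference -2.04 ± 0.10, adjusted p = 3.5e-05). Lower members numbered 6 with quantile normalization, 5 without knockout oil replicate 1, 7 with GC and length trends removed and 8 with GC and length trends removed and a replicate block. Of 31 retinoid and steroid genes, 9 were higher and 6 lower (29.0% higher and 19.4% lower), with 1 tested through the knockout libraries alone and 1, Cyp26a1, through the wild-type libraries alone. Cyp26a1, which breaks down retinoic acid and is induced by it, went from 30.4 and 28.4 to 0.5 and 0.71 FPKM (log2 difference -4.25 ± 0.11, adjusted p = 3.41e-06). The filter fixed its direction, and this was the largest change of that list. Its lower count was 3 without wild-type oil replicate 1, 11 with GC and length trends removed and 12 with GC and length trends removed and a replicate block.

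Of 27 pericentral genes, which hepatocytes near the central vein express, 14 were higher and 4 lower (51.9% higher and 14.8% lower, against 22.2% and 11.6% of all genes), with 1 tested through the knockout libraries alone. Glul, glutamine synthetase, went from 24.3 and 27.1 to 98.2 and 103 FPKM (log2 difference 1.93 ± 0.08, adjusted p = 2.41e-05). The higher count of this list was 9 without knockout oil replicate 2, or with equal library medians, 7 without wild-type oil replicate 1 and 8 without wild-type oil replicate 2, and the lower count 2 without wild-type CCl4 replicate 1 or 2 or wild-type oil replicate 2 or knockout oil replicate 2, or with equal library medians and 1 without wild-type oil replicate 1. Of 28 periportal genes, 8 were higher and 6 lower (28.6% higher and 21.4% lower). Hsd17b6, a steroid dehydrogenase gene, went from 78.6 and 79.1 to 237 and 271 FPKM (log2 difference 1.67 ± 0.08, adjusted p = 3.5e-05). Pigr, the receptor that carries antibodies into bile, went from 324 and 317 to 152 and 148 FPKM (log2 difference -1.09 ± 0.06, adjusted p = 5.68e-05). The number of lower members was 12 with GC and length trends removed. Of 33 transcription factors and nuclear receptors of hepatocytes, 9 were higher and 6 lower (27.3% higher and 18.2% lower), with Foxa2 from 10.6 and 9.98 to 4.59 and 4.97 FPKM (log2 difference -0.97 ± 0.10, adjusted p = 0.00071). These counts were 5 and 2 without wild-type oil replicate 1, and the lower one was 3 without replicate 2.

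Of 46 genes of amino acid breakdown, 13 were lower and 8 higher (17.4% higher and 28.3% lower, against 22.2% and 11.6% of all genes), with Acmsd, an enzyme of tryptophan breakdown, from 15.2 and 14.3 to 4.34 and 3.97 FPKM (log2 difference -1.61 ± 0.13, adjusted p = 0.000251). Tat, tyrosine aminotransferase, went from 724 and 714 to 1677 and 1759 FPKM (log2 difference 1.26 ± 0.07, adjusted p = 7.03e-05). The number of higher members was 4 without knockout oil replicate 2, or with quantile normalization, or with equal library medians, 5 without wild-type CCl4 replicate 1 or 2, or in a fit of the 4 oil libraries and 2 without wild-type oil replicate 1 or 2, and the lower count 7 without wild-type oil replicate 1, 8 without wild-type oil replicate 2 and 25 with GC and length trends removed. Of 22 genes of the urea cycle and ammonia handling, 8 were higher and 2 lower (36.4% higher and 9.09% lower). Slc38a2, an amino acid transporter gene, went from 21.3 and 18 to 96.4 and 80.9 FPKM (log2 difference 2.12 ± 0.14, adjusted p = 0.000142). The higher count of this list was 5 without wild-type oil replicate 1, or with equal library medians and 4 without wild-type oil replicate 2, and the lower count 4 with quantile normalization, 0 without wild-type oil replicate 2 and 7 with GC and length trends removed.

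Of 27 apolipoprotein and plasma carrier genes, 7 were higher and 5 lower (25.9% higher and 18.5% lower, against 22.2% and 11.6% of all genes), with Pltp, which encodes the phospholipid transfer protein, from 2.3 and 2.71 to 22 and 28.4 FPKM (log2 difference 2.89 ± 0.17, adjusted p = 7.96e-05). Serpina6, the corticosteroid carrier, went from 93.7 and 91 to 262 and 292 FPKM (log2 difference 1.57 ± 0.12, adjusted p = 0.00024). The higher count was 13 with quantile normalization and 4 without wild-type oil replicate 1 or 2, and the lower count 3 without wild-type CCl4 replicate 1 or 2 or knockout oil replicate 1, 2 without wild-type oil replicate 1 or 2, 8 with GC and length trends removed and 9 with GC and length trends removed and a replicate block. Of 25 junction genes, 8 were lower and 5 higher (20% higher and 32.0% lower), with 2 tested through the knockout libraries alone. Cgn, which encodes the tight junction protein cingulin, went from 6.67 and 6.91 to 3.09 and 3.01 FPKM (log2 difference -0.94 ± 0.10, adjusted p = 0.000674). Higher members numbered 2 without wild-type oil replicate 1 and 3 without wild-type oil replicate 2.

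Immediate early genes, which cells switch on within minutes of a stimulus, had the largest higher share of the 46 lists. Of 33 listed genes 27 were tested, 8 of them through the knockout libraries alone, and 25 were higher and none lower (92.6% against 22.2%). Because those 8 had to differ, the counts over tested members are not a result about all 33. Fos went from 1.38 and 1.38 to 80 and 84.5 FPKM (log2 difference 5.13 ± 0.09, adjusted p = 5.64e-07). Egr1 went from 1.5 and 1.49 to 55.1 and 55.5 FPKM (log2 difference 4.50 ± 0.07, adjusted p = 4.5e-07). Jun went from 12 and 10.8 to 65.1 and 70.6 FPKM (log2 difference 2.47 ± 0.09, adjusted p = 1.49e-05). Btg2, an antiproliferative gene, went from 3.38 and 3.65 to 24.6 and 24 FPKM (log2 difference 2.49 ± 0.09, adjusted p = 1.68e-05). The summed FPKM of all 33 went from 0.0332% and 0.0325% of all FPKM to 0.14% and 0.15%. With GC and length trends removed, with a pseudocount of 0.1 or without a knockout CCl4 library, 1 member was lower.

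Of 26 heat shock genes tested, 7 were higher and 3 lower (26.9% higher and 11.5% lower, against 22.2% and 11.6% of all genes), with 1, Hspa1a, tested through the knockout libraries alone. The inducible pair Hspa1a and Hspa1b went from 0.36 and 0.2 to 12.3 and 15.7 FPKM (3.55 ± 0.19, adjusted p = 5.53e-05) and from 7.38 and 7.66 to 44.8 and 48.9 FPKM (2.49 ± 0.09, adjusted p = 1.13e-05). The transcripts share 58.8% and 62.3% of their windows, and their sum was 7.74 and 7.86 FPKM in the wild type against 57.1 and 64.7 FPKM in the knockout. The number of higher members was 3 without wild-type oil replicate 1 and 4 without wild-type oil replicate 2, and the lower count 9 with quantile normalization, 1 without wild-type CCl4 replicate 1 or 2 or wild-type oil replicate 1 or 2, or in a fit of the 4 oil libraries, 7 without knockout CCl4 replicate 1 or 2 and 11 with GC and length trends removed.

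Markers of other liver cells were measured because hepatocytes were isolated by collagenase digestion, which can carry other cells along. All 15 markers of Kupffer cells and macrophages were higher in the knockout, against 22.2% of all genes, with a median log2 difference of 2.83. Adgre1 is among the 3 that were tested through the knockout libraries alone. Clec4f, the lectin gene that marks Kupffer cells, went from 3.13 and 3.87 to 37.1 and 48.7 FPKM (log2 difference 3.28 ± 0.18, adjusted p = 5.9e-05). Adgre1, which encodes the F4/80 antigen, went from 0.5 and 0.62 to 10.5 and 11.1 FPKM (log2 difference 2.92 ± 0.09, adjusted p = 8.48e-06). Cd5l, a macrophage-secreted protein gene, went from 4.58 and 5.37 to 62.8 and 83.7 FPKM (log2 difference 3.62 ± 0.17, adjusted p = 3.22e-05). The sum of the 15 markers was 0.00617% and 0.00703% of all FPKM in the wild type and 0.0656% and 0.0809% in the knockout. More cells of a type and more RNA per cell cannot be told apart in such libraries.

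Markers of the sinusoidal endothelium, the lining of liver capillaries, rose in 11 of 12 tested cases and none fell. That is 91.7% higher and 0% lower, against 22.2% and 11.6% of all genes. Stab2 and Kdr are among the 6 tested through the knockout libraries alone, so the count is no result about the whole list. Stab2, a scavenger receptor gene, went from 0.63 and 0.58 to 5.84 and 6.26 FPKM (log2 difference 2.13 ± 0.09, adjusted p = 1.96e-05). Kdr, a VEGF receptor gene, went from 0.5 and 0.58 to 4.28 and 4.54 FPKM (log2 difference 1.81 ± 0.10, adjusted p = 4.78e-05). The sum of the 13 markers was 0.00496% and 0.00539% in the wild type and 0.0164% and 0.0168% in the knockout. The other marker lists held fewer tested members, so their counts, set against the same 22.2% and 11.6%, rest on few genes. Stellate cell and fibroblast markers summed to 0.000486% and 0.000506% against 0.00158% and 0.00143%, with 2 of 13 tested and Ecm1 higher, a count that was 2 without knockout CCl4 replicate 1 or 2, or with quantile normalization, or with the filter over all 8 libraries, or with a replicate block, or with GC and length trends removed and 4 with no filter. Neutrophil and monocyte markers summed to 0.0026% and 0.00233% against 0.00274% and 0.00339%, with 1 of 5 tested higher and 1 lower (20% and 20%). The lower marker was tested through the wild-type libraries alone, so the filter fixed its direction. The higher count of that list was 2 without knockout CCl4 replicate 1 or 2, or with a pseudocount of 0.1, or in a fit of the 4 oil libraries, or with weights by genotype, or with a replicate block, or with GC and length trends removed and a replicate block and 0 without wild-type oil replicate 2 or knockout oil replicate 2, and the lower count 0 without wild-type CCl4 replicate 1 or 2 or wild-type oil replicate 1 or 2 or knockout oil replicate 2, or with no filter, or in a fit of the 4 oil libraries. Of 10 cholangiocyte markers 2 were tested, with none past the threshold in either direction. No lymphocyte or platelet marker was tested, and the platelet marker Gp9 was at 0 in all 4. Of 4 tested erythroid markers 2 were lower and none higher (0% higher and 50% lower). The globin genes Hbb-bs and Hba-a1 went from 6.74 and 7.49 to 1.01 and 0.73 FPKM (-2.12 ± 0.13, adjusted p = 8.78e-05) and from 8.33 and 7 to 0 and 1.07 FPKM (-2.59 ± 0.45, adjusted p = 0.0058). Hba-a2 had 1.71 and 4.53 FPKM against 1.11 and 0.77 FPKM (-1.0 ± 0.38, adjusted p = 0.0892), and Alas2, the erythroid synthase of heme, had 30 and 27.3 FPKM against 30.7 and 36.5 FPKM (0.22 ± 0.11, adjusted p = 0.16), and neither passed.

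**Figure D4:**
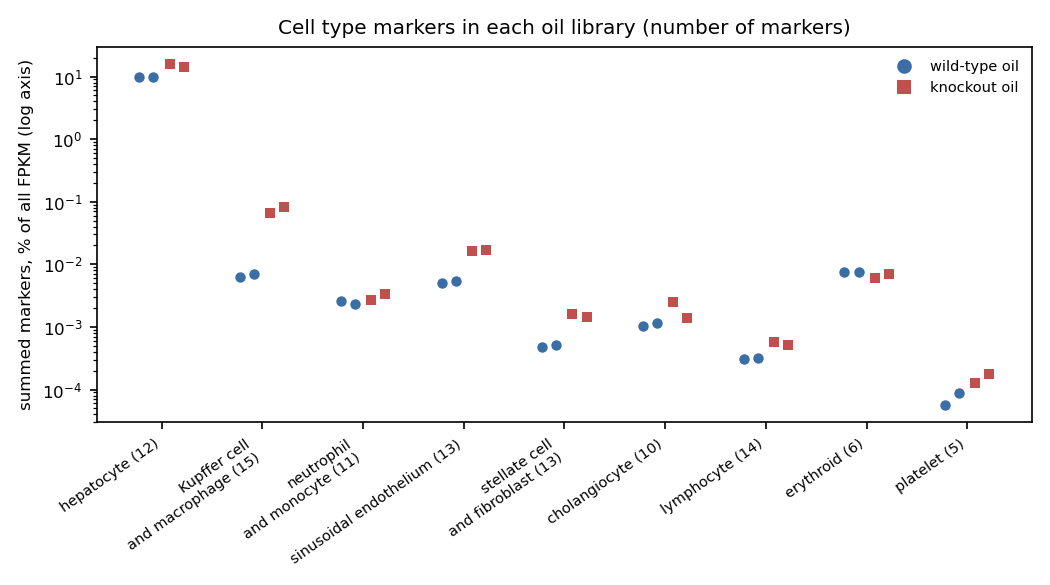
Summed FPKM of the markers of 9 cell types as a percentage of all FPKM (log axis) in each oil library, circles for wild type and squares for knockout, with the number of markers in parentheses. Kupffer cell markers held 0.00617% and 0.00703% in the wild type against 0.0656% and 0.0809% in the knockout, and hepatocyte markers made up 9.71% to 15.8% throughout.

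Further lists hold genes that macrophages and endothelium express. Of 11 tested genes of antigen presentation, 10 were higher and none lower (90.9% higher and 0% lower, against 22.2% and 11.6% of all genes), with 2 tested through the knockout libraries alone. The class II gene H2-Aa went from 2.57 and 2.1 to 8.17 and 10.3 FPKM (1.61 ± 0.13, adjusted p = 0.000287). Cd74, the invariant chain gene, went from 4.51 and 6.95 to 20.4 and 25.8 FPKM (1.85 ± 0.19, adjusted p = 0.000742). The higher count was 6 without wild-type oil replicate 1. Of 10 tested chemokines, 6 were higher and 2 lower (60% higher and 20% lower), with 3 tested through the knockout libraries alone. Cxcl9 and Ccl24 are such genes and went from 0.6 and 0.63 to 3.45 and 3.83 FPKM (1.52 ± 0.11, adjusted p = 0.000193) and from 0.09 and 0.09 to 1.67 and 2.14 FPKM (1.41 ± 0.15, adjusted p = 0.000859), and the lower count was 4 with no filter and 1 without wild-type oil replicate 1, or with GC and length trends removed. Of 15 tested matrix genes, 11 were higher and 1 lower (73.3% higher and 6.67% lower), with 3 tested through the knockout libraries alone. Sparc, which encodes a collagen-binding glycoprotein, went from 1.33 and 1.4 to 7.39 and 7.25 FPKM (1.81 ± 0.10, adjusted p = 6e-05), and the lower count was 0 without wild-type CCl4 replicate 1 or 2 or wild-type oil replicate 1 or 2 or knockout oil replicate 1. Kupffer and endothelial marker sums were higher in the same libraries, and their part in the results was not tested.

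Of 31 interferon-stimulated genes, 12 were higher and 5 lower (38.7% higher and 16.1% lower, against 22.2% and 11.6% of all genes), with 3 tested through the knockout libraries alone and 1 through the wild-type libraries alone. Psmb9, an immunoproteasome subunit gene, went from 5.7 and 4.65 to 13.8 and 16.6 FPKM (log2 difference 1.39 ± 0.14, adjusted p = 0.000645). Irf1 went from 11.5 and 11.6 to 6.06 and 5.68 FPKM (log2 difference -0.87 ± 0.09, adjusted p = 0.00082). The higher count was 6 without wild-type oil replicate 1, and the lower count was 3 without wild-type oil replicate 1 or knockout oil replicate 2. Of 32 cytoskeletal genes and YAP targets, 15 were higher and 10 lower (46.9% higher and 31.2% lower), with 3 tested through the knockout libraries alone. Tmsb4x, an actin-binding peptide gene that blood cells express strongly, went from 13.1 and 17.1 to 75.5 and 95.1 FPKM (log2 difference 2.42 ± 0.15, adjusted p = 0.000103), whereas the tubulin genes Tuba1c and Tuba4a fell, from 66.2 and 68.7 to 12.4 and 12.7 FPKM (-2.34 ± 0.07, adjusted p = 8.22e-06) and from 90.2 and 89.1 to 25.5 and 30.6 FPKM (-1.65 ± 0.11, adjusted p = 0.000122). The higher count of this list was 8 without wild-type oil replicate 1.

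Of 75 tested nuclear genes of the respiratory chain, 49 were higher and none lower (65.3% higher and 0% lower, against 22.2% and 11.6% of all genes). The median was 0.42. Atp5a1, a subunit of ATP synthase, went from 268 and 273 to 449 and 516 FPKM (log2 difference 0.83 ± 0.09, adjusted p = 0.000916). Cox6b1, a cytochrome oxidase subunit, went from 234 and 249.7 to 454 and 547 FPKM (log2 difference 1.04 ± 0.13, adjusted p = 0.00171). Sdha, a succinate dehydrogenase subunit, went from 133 and 137 to 194 and 194 FPKM (log2 difference 0.53 ± 0.06, adjusted p = 0.00102). The count was 23 with equal library medians, 29 without wild-type CCl4 replicate 1 or 2, 14 without wild-type oil replicate 1, 13 without wild-type oil replicate 2 and 19 without knockout oil replicate 2. Of 82 tested cytosolic ribosomal protein genes, 12 were higher and none lower (14.6% higher and 0% lower), both under the shares of all genes, with Rpl22l1 from 36.7 and 38.9 to 60.8 and 65.5 FPKM (log2 difference 0.72 ± 0.08, adjusted p = 0.00082). This count was 1 without wild-type oil replicate 1 or 2 or knockout oil replicate 2, or with equal library medians, 7 in a fit of the 4 oil libraries, 20 with a replicate block, 5 without wild-type CCl4 replicate 1 or 2, 19 without knockout CCl4 replicate 1 or 2, 21 without knockout oil replicate 1, 29 with GC and length trends removed and 30 with GC and length trends removed and a replicate block, and 2 were lower with quantile normalization. Of 77 mitochondrial ribosomal genes 6 were higher and 7 lower, of 40 proteasome genes 4 and 4, and of 20 metallothionein and zinc transporter genes 2 and 2, also under the shares of all genes. Without single libraries or under other scalings these counts ranged over 0 to 11 higher and 0 to 16 lower, 2 to 6 higher and 0 to 15 lower, and 1 to 4 higher and 0 to 6 lower, in the same order.

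Lists of regulators of growth and of energy use held more higher than lower genes among the tested members. Of 25 tested cell cycle genes, 13 were higher and 1 lower (52.0% higher and 4.0% lower, against 22.2% and 11.6% of all genes), with 5 tested through the knockout libraries alone. With GC and length trends removed 2 were lower. The 5 had to lie higher, so the count is no result about the whole list. Ccnd1, cyclin D1, is such a gene and went from 0.74 and 0.89 to 6.11 and 6.09 FPKM (log2 difference 1.97 ± 0.09, adjusted p = 2.65e-05). The higher count was 6 without either wild-type oil replicate. Of 20 tested p53 targets, 6 were higher and 1 lower (30% higher and 5.0% lower), with 1, Cdkn1a, tested through the knockout libraries alone and 1 through the wild-type libraries alone. Cdkn1a, the cell cycle inhibitor p21, went from 0.5 and 0.29 to 5.78 and 6.55 FPKM (log2 difference 2.36 ± 0.11, adjusted p = 3.5e-05). The lower count was 2 without knockout oil replicate 1, or with quantile normalization, or with equal library medians, or with a replicate block, 3 without knockout CCl4 replicate 1 or 2 and 4 with GC and length trends removed.

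Of 38 genes of autophagy and the mTOR brakes, 15 were higher and 1 lower (39.5% higher and 2.63% lower, against 22.2% and 11.6% of all genes), with Ulk1, the kinase that starts autophagy, from 8.62 and 8.48 to 20.2 and 21.7 FPKM (log2 difference 1.20 ± 0.09, adjusted p = 0.000183). Sesn2, a leucine sensor gene, went from 1.43 and 1.52 to 5.96 and 5.48 FPKM (log2 difference 1.44 ± 0.11, adjusted p = 0.000191). The higher count of this list was 9 without wild-type CCl4 replicate 1 or 2, or with GC and length trends removed, 6 without wild-type oil replicate 1, 5 without wild-type oil replicate 2 and 8 without knockout oil replicate 2, and the lower count 2 with quantile normalization, or with GC and length trends removed and 0 without wild-type CCl4 replicate 1 or 2 or wild-type oil replicate 1 or 2 or knockout oil replicate 1, or with equal library medians, or in a fit of the 4 oil libraries. Of 18 clock genes, 8 were higher and 1 lower (44.4% higher and 5.56% lower). Tsc22d3, a glucocorticoid target counted with the clock outputs, went from 45.7 and 45.8 to 98.6 and 102 FPKM (log2 difference 1.12 ± 0.07, adjusted p = 9.26e-05). Per1 went from 5.71 and 5.33 to 11 and 11.1 FPKM (log2 difference 0.89 ± 0.10, adjusted p = 0.00111). The number of higher members was 5 with quantile normalization and 4 without wild-type oil replicate 1 or 2, and the lower count 0 without wild-type CCl4 replicate 1 or 2 or wild-type oil replicate 1 or 2 or knockout oil replicate 2, or with a pseudocount of 0.1, or with no filter, 2 with a replicate block, 3 with GC and length trends removed and 4 with GC and length trends removed and a replicate block.

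The genotype difference after CCl4 came from libraries that share none with the oil comparison, but the knockout replicates of both differed in a like way. The knockout CCl4 replicates also differed with GC content (Spearman rho -0.69) and transcript length (0.39), with a standard deviation of 0.397. Their difference correlated at 0.82 with that of the knockout oil replicates. The part of this in the overlap of the calls was not tested. After CCl4, 5304 of the same 9446 genes passed the threshold (56.2%), 27.7% higher and 28.5% lower. Of the 3185 genes that passed under oil, 1806 passed after CCl4 in the same direction, which is 56.7% of the oil calls and 34.0% of the CCl4 calls, and 468 passed in the opposite direction. The difference between the effects passed in 3158 genes (33.4%), and in 1878 to 2021 when any wild-type library was left out.

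After CCl4, 11 of the 30 acute phase genes were higher and 15 lower, with a median of -0.26. Of all tested genes, 27.7% were higher and 28.5% lower after CCl4. Lcn2, for example, went from 2129.7 and 2133 to 1621 and 1922 FPKM after CCl4 (log2 difference -0.27 ± 0.10), and the difference between the effects was 5.84 ± 0.13 (adjusted p = 8.44e-06). Saa3 was higher in the knockout, from 121 and 106 to 301 and 386 FPKM (1.58 ± 0.13, adjusted p of the difference = 8.52e-06). In the ER chaperone list 20 of 30 were lower and 2 higher after CCl4, against the same shares of all genes. Hspa5 differed by -1.39 ± 0.12 after CCl4, and the difference between its effects did not pass (-0.07 ± 0.16, adjusted p = 0.785).

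Metabolic genes differed in both ways. Pklr and G6pc were lower in the knockout after CCl4 (-0.71 ± 0.07 and -1.02 ± 0.07), with adjusted p-values of 8.44e-06 and 8.44e-06 for the difference. Hmox1 rose by 2.03 ± 0.17 after CCl4, and its difference between the effects did not pass (0.07 ± 0.24, adjusted p = 0.843). Eif2ak3, which did not pass under oil, rose by 3.0 ± 0.11 after CCl4 (adjusted p = 4.44e-06), and the difference passed (2.74 ± 0.15, adjusted p = 5.58e-05). Immediate early genes were higher in 26 of 27 cases after CCl4 and Kupffer markers in 14 of 15, against 27.7% of all tested genes. Of these members, 8 and 3 were tested through the knockout oil libraries alone, so the counts are no result about the whole lists.

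**Figure D5:**
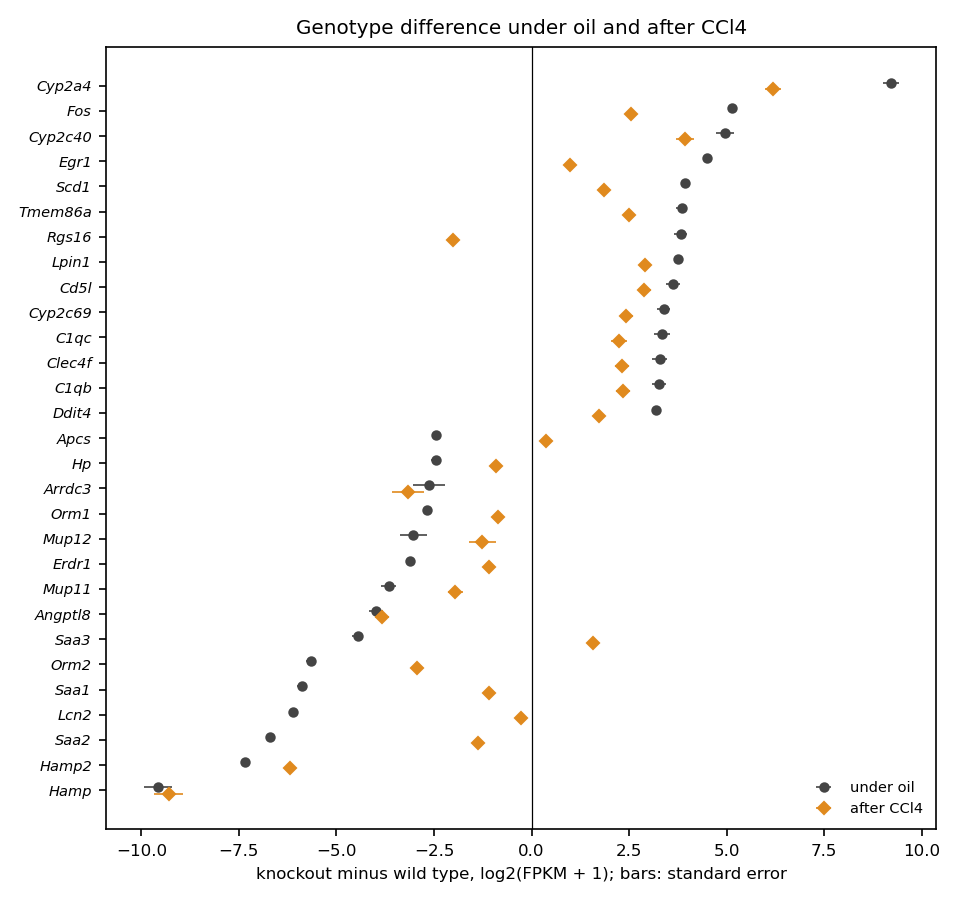
Genotype difference (knockout minus wild type, log2(FPKM + 1)) under oil (circles) and after CCl4 (diamonds), with standard errors, for 29 genes of the 30 with the largest changes under oil. After CCl4, 26 kept their sign and passed and 3 passed with the opposite sign (Rgs16, Saa3 and Apcs), and 28 were smaller in size, as genes picked for a large value under oil can be.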

How the data were processed

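RNA of primary hepatocytes, isolated by collagenase digestion, gave 8 libraries, with 2 for each of 4 groups, per the labels' protocols. The authors deposited FPKM per gene and library, per the file headers. The submitters' processing notes name the build mm8. No aligner, counting tool or annotation is named in those notes or labels, and the depth is unknown, so the precision of a value is known only from 2 libraries.

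Of 16338 rows, 1 names no gene. Symbols stored as dates (23) were read by Entrez identifier from RefSeq GRCm38.p6, which held 99.8% of identifiers. GC content and length, known for 99.77% of tested genes, were those of the longest GENCODE transcript of each Entrez identifier. Values were taken as log2(FPKM + 1). All 8 libraries were fitted in 1 model of 4 groups with limma 3.58.1 in R 4.3.3 (trended prior, 4 residual degrees of freedom), with Benjamini-Hochberg adjustment over 9446 genes. The fit was tested on simulated data. Summaries and figures used Python 3.11.15 and matplotlib 3.10.9. Shared transcript windows came from the GENCODE reference. The alternatives were other scalings, filters, pseudocounts, thresholds and weights, a replicate block, each library left out, and, added after the data were seen, removal of GC and length trends.

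The members and lists were chosen with earlier results of these data known. Genes named were all of hepcidin control and iron handling that the text needs, up to 4 with the smallest adjusted p per other list, the 15 largest increases and 15 largest decreases above the median level and the neighbours of Hamp. Chosen after their values were seen, or for a promoter motif, the study's title or a check of labels, were Ahsg, Atf4, Calr, Canx, Cd14, Cpt1a, Cyp2b13, Cyp2e1, Cyp3a16, Cyp3a41a, Cyp4a10, Cyp4a14, Ddit3, Ddx3y, Dnajc3, Eif2ak3, Eif2s3y, Elovl3, Ern1, Fasn, Fga, Hsp90b1, Hspa5, Itih4, Kdm5d, Mlxipl, Nnt, Pdia6, Srebf1, Syvn1 and Xbp1. Results of some genes are not reported here.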

Additional observations from a re-analysis of the deposited data

Results flagged for a closer look

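The genotype difference under oil was set against that after CCl4 for 49 genes: 29 of the 30 with the largest changes under oil and 20 further called genes of hepcidin control and iron handling. The difference between the effects (after CCl4 minus under oil, log2(FPKM + 1), limma interaction term, adjusted over all tested genes) passed an FDR of 0.05 in 39 of them and did not in 10. Over all tested genes 33.4% passed. Among the acute phase proteins and hemopexin it was 4.81 for Saa1, 5.34 for Saa2, 6.04 for Saa3, 5.84 for Lcn2, 1.83 for Orm1, 2.72 for Orm2, 1.53 for Hp, 1.45 for Hpx, 2.82 for Apcs and 0.94 for Fgl1. Among oxygenases and urinary proteins it was -3.02 for Cyp2a4, -0.96 for Cyp2c69, 1.71 for Mup11 and 1.77 for Mup12. Among lipid genes and immediate early or stress genes it was -2.09 for Scd1, -0.85 for Lpin1, -1.35 for Tmem86a, -2.58 for Fos, -3.51 for Egr1 and -1.47 for Ddit4. Among products of macrophages it was -0.92 for C1qb, -1.10 for C1qc and -0.97 for Clec4f. Among genes of hepcidin control it was 1.17 for Hamp2, -1.89 for Hfe2, -1.24 for Bmp2, -0.49 for Smad4, -0.61 for Id1, 1.64 for Id2, 0.92 for Id3, -2.13 for Il6ra, 0.42 for Stat3 and 2.23 for Gdf15. Among genes of iron handling it was -1.01 for Slc39a14, -3.13 for Steap4, -1.13 for Aco1 and -0.65 for Nfs1. It was also -5.84 for Rgs16 and 2.04 for Erdr1.

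In 27 of the 39 the sign was the same and the size smaller after CCl4, in 4 the size was larger, and in 7 the gene passed in the opposite direction. For Id1 the difference after CCl4 was -0.01 and did not pass. The genes were chosen for passing under oil, most of them for a large value there, so a smaller value elsewhere is no independent observation.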

How the results depend on the processing

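Depth is unknown and each group holds 2 libraries, which limits small differences. The number of called genes was 211 for a test of at least 2-fold change (154 higher, 57 lower) and 1799 at an FDR of 0.01 (1246 higher, 553 lower). With GC and length trends removed 2254 genes were lower, and 2373 with a replicate block besides. Leaving out 1 library in turn gave 1582 to 3699 called genes, 1112 to 2364 higher and 470 to 1336 lower. The number of genes with a difference between the effects was 356 for at least 2-fold, 1720 at an FDR of 0.01 and 1878 to 3654 with 1 library left out. A fit of the oil libraries alone gives no such difference. Of 160 called genes in the text, 147 were called under all alternatives but the stricter thresholds. The direction turned in Fga (0.05) and Fgb (0.07) with quantile normalization. Among genes that did not pass, it turned in Ftl1 (0.41) and Hfe (-0.1) with quantile normalization, in Atf4 with it (-0.01), and in Hfe with equal library medians (-0.02). With GC and length trends removed, with or without a block, it turned in Atf4 (-0.00091), Hfe (-0.12), Tfrc (0.23) and Trf (-0.05). With 1 library left out, the difference ranged from -0.15 to 0.13 for Ftl1, from -0.14 to 0.15 for Hfe and from -0.89 to 0.82 for Tfrc. The cause was not tested. The replicate numbers are shared between groups, but the labels do not say that they pair the samples. The difference between replicates 1 and 2 correlated across genes at 0.23 between wild-type and knockout oil. It correlated at 0.82 between knockout oil and knockout CCl4, the highest of the 6 pairs of groups, and the lowest was -0.28. The source of the 0.82 was not tested. With a replicate block 3376 genes were called (2158 higher, 1218 lower), and 3312 for the difference between the effects.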

Other observations

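Nnt, which encodes the mitochondrial nicotinamide nucleotide transhydrogenase, went from 12.6 and 12 to 54.7 and 52.8 FPKM (log2 difference 2.04 ± 0.07, adjusted p = 1.16e-05) by limma, and was higher in both knockout libraries than in both wild-type libraries. After CCl4 it went from 15.6 and 16.5 to 47.4 and 46 FPKM. The gene is known to carry a deletion in the substrain C57BL/6J. The substrain of either genotype is not given in the sources used here, so a strain difference and the Hamp genotype cannot be told apart for this gene. It was chosen after its values were seen.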
